A study of Mus musculus with 12 samples.

Results

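The genes described here are 34 genes of glucose uptake, glycolysis, lactate handling and glycogen metabolism, chosen by gene symbol from the 26699 symbols in the count files of 12 RNA-seq libraries. Of these, 33 had enough counts to be tested, and Ldhb, with 0 to 11 counts per library, did not. The libraries came from synovium, the lining tissue of the joint, of adult wild-type mice of C57BL/6J background. Whole-mount explants of it were exposed to CGRP (calcitonin gene-related peptide, a neuropeptide released by pain-sensing nerve endings) at 100 nM, or to vehicle as the control, over 4 h in culture, after which they were digested with collagenase and 2 subsets of MHCII+ macrophages were sorted. These were the MHCII+CD11c- cells (titled IAIE in the labels, and called CD11c- cells here) and the CD11c+MHCII+ cells (called CD11c+ cells), with 3 control and 3 CGRP libraries of each. The titles of the control libraries read Healthy and name neither vehicle nor culture, which are taken from the study's methods. No group carried a genetic alteration, the study's mice were of both sexes and in general 8 to 20 weeks of age, and the labels do not say whether the 3 libraries of a group came from separate mice, so p-values measure the spread between these libraries, which may be technical.

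Glycolysis splits glucose into pyruvate through a chain of cytosolic enzymes and yields ATP without oxygen. Pyruvate is then either reduced to lactate, which leaves the cell through monocarboxylate carriers, or enters the mitochondrion. There it is used by the pyruvate dehydrogenase complex, which the pyruvate dehydrogenase kinases switch off. Glucose can also be stored as glycogen, by way of phosphoglucomutase, glycogen synthase and the branching enzyme, and released again by glycogen phosphorylase. Macrophages are known to alter the use of these routes when they are activated, and many of the genes are textbook targets of the oxygen-sensitive factor HIF-1.

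With CGRP, transcripts of most of the glycolytic chain rose in both macrophage subsets. The genes, and the lists and comparisons below, were chosen with earlier results of these data known. Their counts beside all genes are therefore descriptive and are no test of the set. In CD11c- cells 20 of the 33 genes tested rose and 1 fell, where 5.32% of all 11927 genes tested rose and 3.89% fell (9.21% passed in either direction). In CD11c+ cells 18 rose and 1 fell, where 6.29% of all genes rose and 4.59% fell (10.9% in either direction). The median log2 fold change of the 33 genes was 1.11 in CD11c- cells and 1.05 in CD11c+ cells, beside -0.02 and 0 over all genes tested. The 3 CGRP libraries lay entirely above the 3 control libraries for 22 of the 33 genes in each subset and entirely below them for 1 (Slc2a6). Over all genes tested, non-overlapping groups were found for 24.9% in CD11c- cells (12.9% above, 12% below) and for 29.2% in CD11c+ cells (15.4% above, 13.8% below). The test throughout was edgeR's quasi-likelihood test with Benjamini-Hochberg adjustment over all genes tested, a call means an adjusted p under 0.05, and levels are CPM (library-size-scaled counts, with TMM factors), given in the order of replicates 1, 2 and 3.

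The 34 genes together took 0.58% to 0.785% of all counts in the 6 control libraries and 1.13% to 1.65% in the 6 CGRP libraries. In CPM their summed level was 5520 to 6290 in CD11c- controls and 12000 to 14400 with CGRP. It was 6550 to 7580 in CD11c+ controls and 16500 to 16900 with CGRP. In bulk libraries like these, more cells of one state and more RNA per cell cannot be told apart.

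Of the 20 genes that rose in CD11c- cells and the 18 that rose in CD11c+ cells, 17 were the same, which is 85% of the first list and 94.4% of the second. Over all genes tested, 635 rose in CD11c- cells and 750 in CD11c+ cells. Their overlap was counted only among the 8827 with a listed promoter, of which 307 rose in both. The labels do not say whether the subsets came from shared explants, so the lists may not be separate evidence. They were Slc2a1, Hk1, Gpi1, Pfkl, Tpi1, Gapdh, Pgk1, Pgam1, Eno1, Pkm, Ldha, Slc16a3, Pdk1, Pgm1, Gbe1, Gys1 and Pygl. Slc2a3, Hk3 and Pdk3 passed in CD11c- cells and missed the threshold in CD11c+ cells, and Pfkfb3 passed in CD11c+ cells and missed it in CD11c- cells. The gene that fell, Slc2a6, was the same in both.

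**Figure D1:**
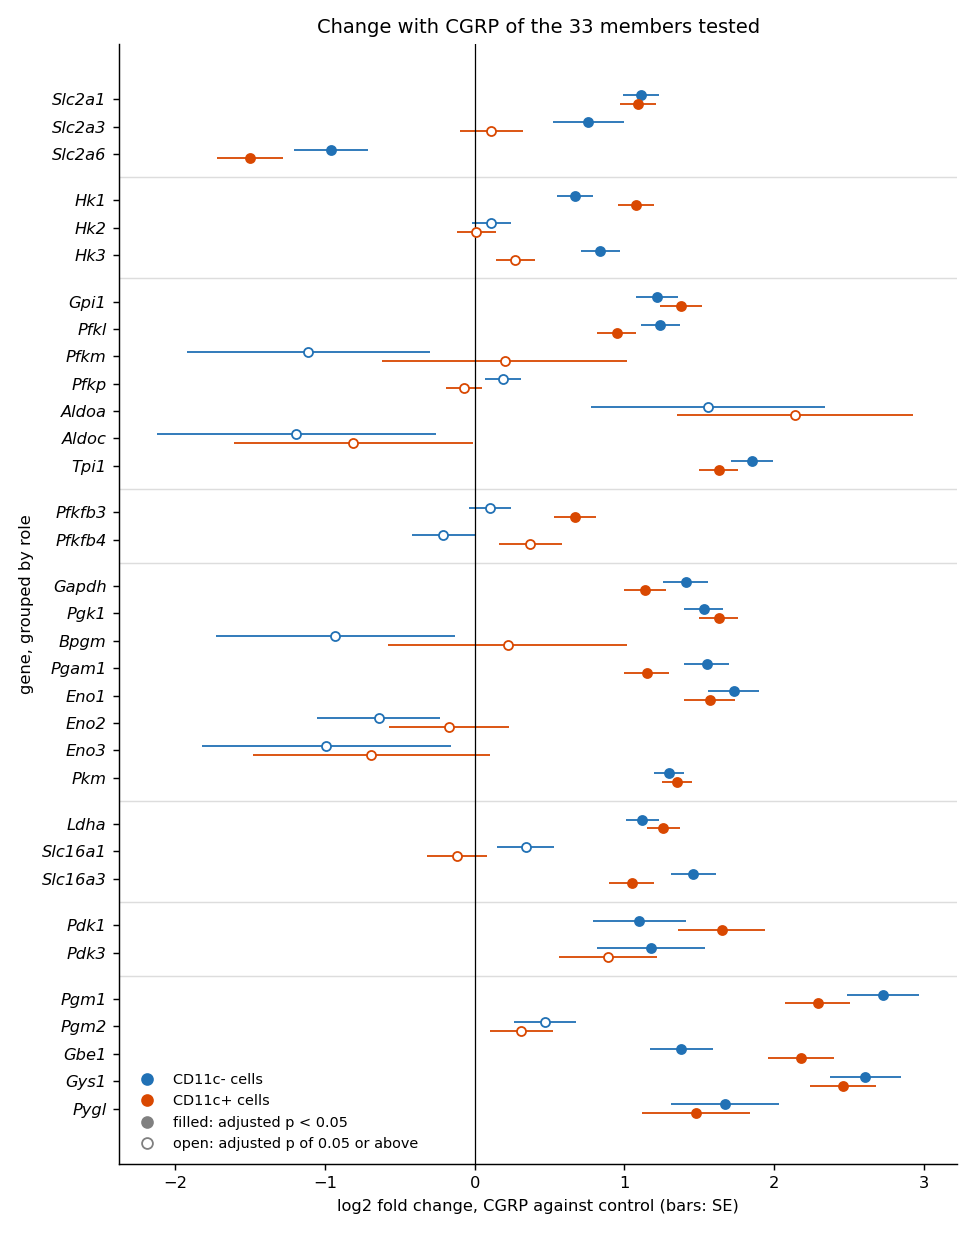
Log2 fold change with CGRP (x axis, bars show the standard error) of the 33 genes tested, grouped by role, in CD11c- cells (blue) and CD11c+ cells (orange), 3 libraries a group. Filled points had an adjusted p under 0.05, of which 20 lie to the right and 1 to the left of zero in CD11c- cells and 18 and 1 in CD11c+ cells.

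For some of the genes, picked with their changes known, the 250 bases before the first listed transcription start were read from RefSeq (GRCm38.p6, the assembly of the mm10 build). They show the carriers that moved in opposite directions (Slc2a1 and Slc2a6), the enzymes Pgk1 and Ldha, and the glycogen genes with the largest rises (Pgm1 and Gys1). The windows are chr4:119108495-119108744 on the plus strand for Slc2a1, chrX:106186850-106187099 on the plus strand for Pgk1, chr7:46845554-46845803 on the plus strand for Ldha, chr4:99929201-99929450 on the plus strand for Pgm1, chr7:45434589-45434838 on the plus strand for Gys1, chr2:27027999-27028248 on the minus strand for Slc2a6. Each is written 5′ to 3′ on the gene's strand, and capitals mark ACGTG or GCGTG, the core letters bound by HIF factors, or their reverse complements.
Slc2a1: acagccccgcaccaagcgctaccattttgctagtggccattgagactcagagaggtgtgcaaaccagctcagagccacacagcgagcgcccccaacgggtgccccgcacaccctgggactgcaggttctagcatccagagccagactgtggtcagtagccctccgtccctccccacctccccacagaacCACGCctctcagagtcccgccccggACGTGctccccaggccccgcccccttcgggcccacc
Pgk1: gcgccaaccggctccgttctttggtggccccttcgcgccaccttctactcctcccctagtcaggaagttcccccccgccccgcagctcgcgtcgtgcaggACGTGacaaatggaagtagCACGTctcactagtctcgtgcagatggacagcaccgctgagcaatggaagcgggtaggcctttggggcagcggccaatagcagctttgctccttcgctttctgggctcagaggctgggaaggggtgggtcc
Ldha: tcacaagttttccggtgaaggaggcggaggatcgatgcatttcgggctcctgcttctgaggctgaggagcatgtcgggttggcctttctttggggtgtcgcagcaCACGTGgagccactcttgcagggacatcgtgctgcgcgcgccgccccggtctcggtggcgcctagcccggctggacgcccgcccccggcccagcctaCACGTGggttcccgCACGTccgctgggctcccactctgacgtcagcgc
Pgm1: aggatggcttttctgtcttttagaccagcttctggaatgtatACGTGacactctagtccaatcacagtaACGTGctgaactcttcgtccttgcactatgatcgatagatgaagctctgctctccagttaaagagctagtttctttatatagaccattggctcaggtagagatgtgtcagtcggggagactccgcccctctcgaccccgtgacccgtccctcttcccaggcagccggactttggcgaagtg
Gys1: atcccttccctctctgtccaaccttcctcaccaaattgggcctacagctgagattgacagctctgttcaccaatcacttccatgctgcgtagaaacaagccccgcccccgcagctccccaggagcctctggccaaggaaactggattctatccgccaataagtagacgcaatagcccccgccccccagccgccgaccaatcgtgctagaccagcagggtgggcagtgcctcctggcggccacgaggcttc
Slc2a6: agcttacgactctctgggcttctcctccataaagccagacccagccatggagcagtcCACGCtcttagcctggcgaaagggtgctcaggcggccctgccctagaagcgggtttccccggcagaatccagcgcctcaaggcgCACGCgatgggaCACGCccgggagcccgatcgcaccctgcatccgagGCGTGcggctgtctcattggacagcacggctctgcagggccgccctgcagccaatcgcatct

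Pgk1, Slc2a1 and Pgm1 each held 2 such cores in these windows, Ldha held 5 (its 2 CACGTG palindromes count on both strands), Slc2a6 held 4 and Gys1 held 0. Over the 300-base promoters (250 bases before to 50 after the start), found for 33 of the 34 genes (not for Slc2a3), 24 (72.7%) held ACGTG or GCGTG on either strand, as did 63.7% of the 8827 tested genes with a promoter and 43.8% of all 27025 listed promoters. ACGTG was present in 16 (48.5%), beside 26.5% of promoters of tested genes. The share with either core was 64.7% among the 17 genes that rose in both subsets and 81.2% among the other 16, beside 53.4% of the 307 tested genes with a promoter that rose in both. For ACGTG alone it was 47.1% and 50%, beside 22.5% of those 307. Of the 17 genes, Hk1, Gpi1, Tpi1, Pkm, Gbe1 and Gys1 held neither core at the first listed start. Only Gys1 of these is printed above. CACGTG, which contains ACGTG, was in 9.09% of the genes' promoters (10.5% of those of tested genes), and TGACG, the half-site letters of cAMP response elements, in 21.2% (32.7% of those of tested genes). A match describes letters in the window and not a bound site, and the absence of one says only that these letters are not there.

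Library totals ran from 2127191 to 5649698 counts, so that the 3-count floor corresponded to 0.531 to 1.33 CPM, a floor that covers counting error only. The sort markers followed the labels, with Itgax (CD11c) at 107 to 270 CPM in CD11c+ libraries and 1.24 to 10.7 CPM in CD11c- libraries. The summed macrophage markers stood at 6650 to 12200 CPM in every library, and the dendritic cell markers at 803 to 987 CPM in CD11c+ and 172 to 325 CPM in CD11c- libraries. Of 10 macrophage markers, edgeR called 8 lower and 0 higher in CD11c+ than in CD11c- controls, and 7 lower and 0 higher with CGRP. For 8 dendritic cell markers tested, 5 were called higher and 0 lower in controls, and 4 and 0 with CGRP. Among all genes, 10.9% were lower and 10.2% higher in controls, and 8.51% and 8.36% with CGRP. Itgax itself was lower with CGRP in CD11c+ cells, at 270, 220 and 219 CPM in controls and 118, 107 and 121 CPM with CGRP (-1.03 ± 0.30, adjusted p = 0.0288). Other markers moved too. The MHC class II genes H2-Ab1, H2-Aa and H2-Eb1 fell with CGRP in both subsets, 3 of 6 fibroblast markers tested fell in CD11c- cells and 2 rose in CD11c+ cells, and 3 of 4 mural markers rose in CD11c+ cells. Of 8 dendritic cell markers tested, 2 fell in CD11c- cells, and 4 fell and 1 rose in CD11c+ cells. Summed fibroblast markers were highest in CD11c- control replicate 2 (1380 CPM) and CD11c- CGRP replicate 1 (1570 CPM), and mural markers in CD11c+ CGRP replicates 1 and 3 (290 and 141 CPM). The part of these cells in the changes below was not tested. With each of the 12 libraries left out in turn, 18 to 21 of the genes were called in CD11c- cells and 18 to 20 in CD11c+ cells.

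Glucose enters through carriers of the Slc2a family, and the 3 studied here moved in different directions. Slc2a1 (GLUT1), the basal glucose carrier of most cells, stood at 356, 378 and 326 CPM in CD11c- controls and 768, 748 and 782 CPM with CGRP. The CD11c+ level went from 535, 484 and 501 CPM to 1230, 1040 and 974 CPM. Every CGRP library thus lay above every control of its subset, and the rise was 2.16-fold (log2 1.11 ± 0.12 SE, adjusted p = 5.89e-06) and 2.13-fold (1.09 ± 0.12, adjusted p = 5.05e-06). Slc2a6 (GLUT6), a carrier of the same family that sits on internal membranes, did the opposite. Its level was 28.5, 19.2 and 16.6 CPM in CD11c- controls and 11.4, 13.1 and 8.86 CPM with CGRP. In the CD11c+ sort it was 77.1, 102 and 84.5 CPM and then 33.4, 36.1 and 24.4 CPM. The groups did not overlap in either subset, with a log2 change of -0.96 ± 0.25 (adjusted p = 0.0194) and -1.50 ± 0.22 (adjusted p = 0.00014).

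Slc2a3 (GLUT3), a high-affinity glucose carrier, had the least firm call of the carriers. In CD11c- cells it stood at 24.8, 23.8 and 16.6 CPM in controls and 29.9, 33.3 and 47.9 CPM with CGRP (0.76 ± 0.24, adjusted p = 0.0492). The CGRP libraries were higher, but the call was lost in 6 of 12 other settings and without any 1 of 8 of the 12 libraries. In CD11c+ cells the levels overlapped, at 66.1, 115 and 89.9 CPM against 110, 99.3 and 85.9 CPM, and the estimate was 0.11 (95% interval -0.33 to 0.55). The Slc2a6 call in CD11c- cells was lost in 2 of 12 other settings and without CD11c- control replicate 1 (adjusted p = 0.138), CD11c- CGRP replicate 1 (0.0525) or CD11c- CGRP replicate 3 (0.106), whereas in CD11c+ cells it held in all.

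Levels per kilobase of exon allow different genes to be set side by side only roughly, since exons of all annotated transcripts of a gene are counted. On that scale Slc2a1 supplied most transcripts of the 3 carriers in every group. Its share of their summed level was 91.3% ± 1.83 (SD, n = 3) in CD11c- controls and 96.2% ± 0.345 with CGRP. In CD11c+ cells the share was 78.4% ± 3.96 in controls and 93.0% ± 0.642 with CGRP. Slc2a6 supplied 14.9% ± 2.15 of the CD11c+ control total and 2.94% ± 0.497 with CGRP.

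**Figure D2:**
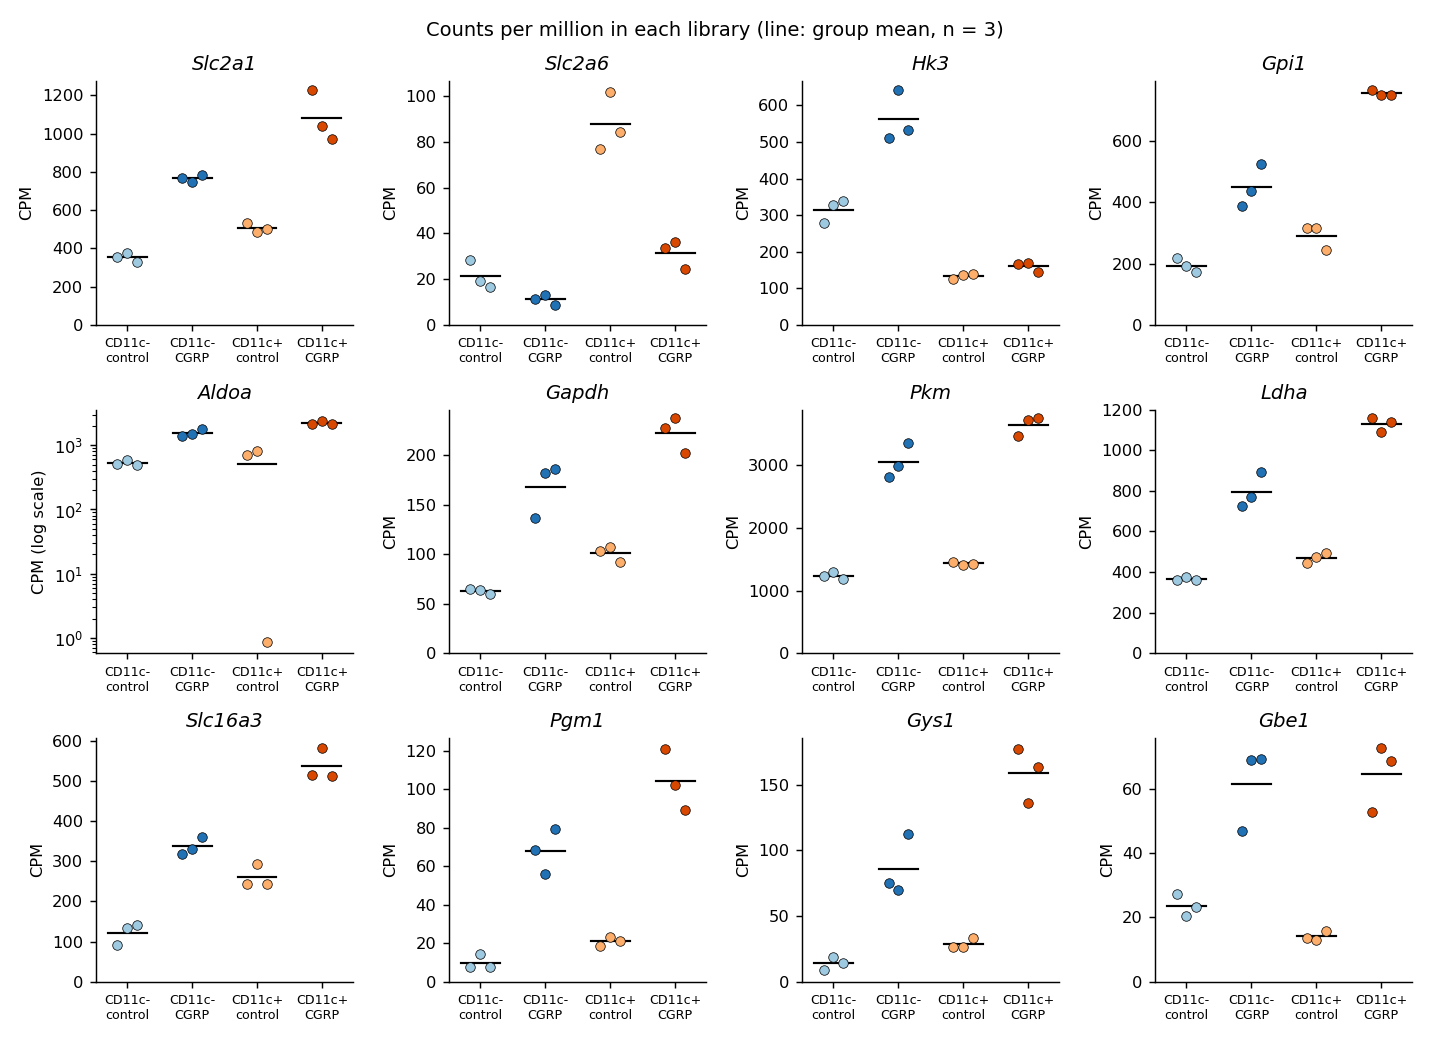
CPM (y axes, logarithmic for Aldoa and linear from 0 for the others) of 12 of the genes in each of the 12 libraries, by subset and treatment, with a line at the mean of the 3 libraries. Of the 12 genes 9 rose in both subsets, Hk3 rose in CD11c- cells and Slc2a6 fell in both, and the Aldoa value of 1 CD11c+ control library stands at 0.858 CPM.

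Hexokinases trap glucose in the cell as glucose 6-phosphate, and the 3 isozymes behaved differently. Hk1, the housekeeping form, read 242, 238 and 272 CPM in CD11c- controls and 425, 377 and 395 CPM with CGRP. Among CD11c+ libraries it read 204, 184 and 191 CPM and then 455, 382 and 390 CPM. All CGRP libraries were above all controls, with log2 changes of 0.67 ± 0.12 (adjusted p = 0.000997) and 1.08 ± 0.12 (adjusted p = 6.48e-06). Hk3, the form typical of myeloid cells, read 278, 329 and 338 CPM in CD11c- controls and 511, 641 and 534 CPM with CGRP (0.84 ± 0.13, adjusted p = 0.000316). In CD11c+ cells it read 124, 136 and 138 CPM in controls and 167, 169 and 144 CPM with CGRP. These did not overlap either, yet the estimate of 0.27 ± 0.13 did not pass (adjusted p = 0.244).

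Hk2, the inducible hexokinase, stayed between 458 and 640 CPM in all 12 libraries. Its estimates were 0.11 (95% interval -0.17 to 0.39) in CD11c- cells and 0.01 (-0.26 to 0.29) in CD11c+ cells, so that a 2-fold change lies outside both intervals. The makeup of the hexokinases per kilobase shifted accordingly. In CD11c- cells Hk2 gave 43.3% ± 4.39 of the total in controls and 32.3% ± 3.47 with CGRP, while Hk3 gave 42.2% ± 3.24 and 51.8% ± 4.74. In CD11c+ cells Hk2 remained the leading form, at 61.7% ± 1.69 and 51.0% ± 1.19, and Hk1 went from 14.8% ± 0.352 to 25.7% ± 1.53.

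The upper chain turns glucose 6-phosphate into triose phosphates. Gpi1, glucose 6-phosphate isomerase, stood at 217, 191 and 171 CPM in CD11c- controls and at 388, 436 and 526 CPM with CGRP (2.34-fold, adjusted p = 1.59e-05). In CD11c+ cells the values were 315, 315 and 245 CPM and 767, 751 and 752 CPM (2.60-fold, adjusted p = 3.86e-06). The lowest CGRP library was thus well above the highest control in both. Tpi1, triosephosphate isomerase, showed the largest rise of this stretch among genes that passed. It went from 100, 82.0 and 77.0 CPM to 308, 312 and 316 CPM in CD11c- cells (log2 1.85 ± 0.14, adjusted p = 4.35e-07). The CD11c+ level went from 162, 128 and 135 CPM to 467, 416 and 429 CPM (1.63 ± 0.13, adjusted p = 2.97e-07). The groups were apart in both subsets.

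Phosphofructokinase commits sugar to glycolysis, and its liver and platelet forms parted. Pfkl, the liver form, read 99.3, 103 and 80.1 CPM in CD11c- controls and 214, 232 and 221 CPM with CGRP (1.24 ± 0.13, adjusted p = 4.76e-06). In the CD11c+ sort it read 139, 147 and 157 CPM and 291, 275 and 291 CPM (0.95 ± 0.13, adjusted p = 3.66e-05). No CGRP library came down to a control level. Pfkp, the platelet form, did not pass, at 0.19 (95% interval -0.06 to 0.43) in CD11c- cells and -0.07 (-0.31 to 0.17) in CD11c+ cells. Per kilobase Pfkl made up 43.1% ± 5.85 of the 3 phosphofructokinases in CD11c- controls and 62.3% ± 1.72 with CGRP, and 37.7% ± 1.94 and 55.1% ± 0.898 in CD11c+ cells. The muscle form Pfkm supplied at most 6.14% in any library. These shares rest on exon lengths of 6675 bases for Pfkl and 13401 for Pfkp. In mean CPM, Pfkp stayed above Pfkl with CGRP, at 262 and 222 in CD11c- cells and 458 and 286 in CD11c+ cells.

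**Figure D3:**
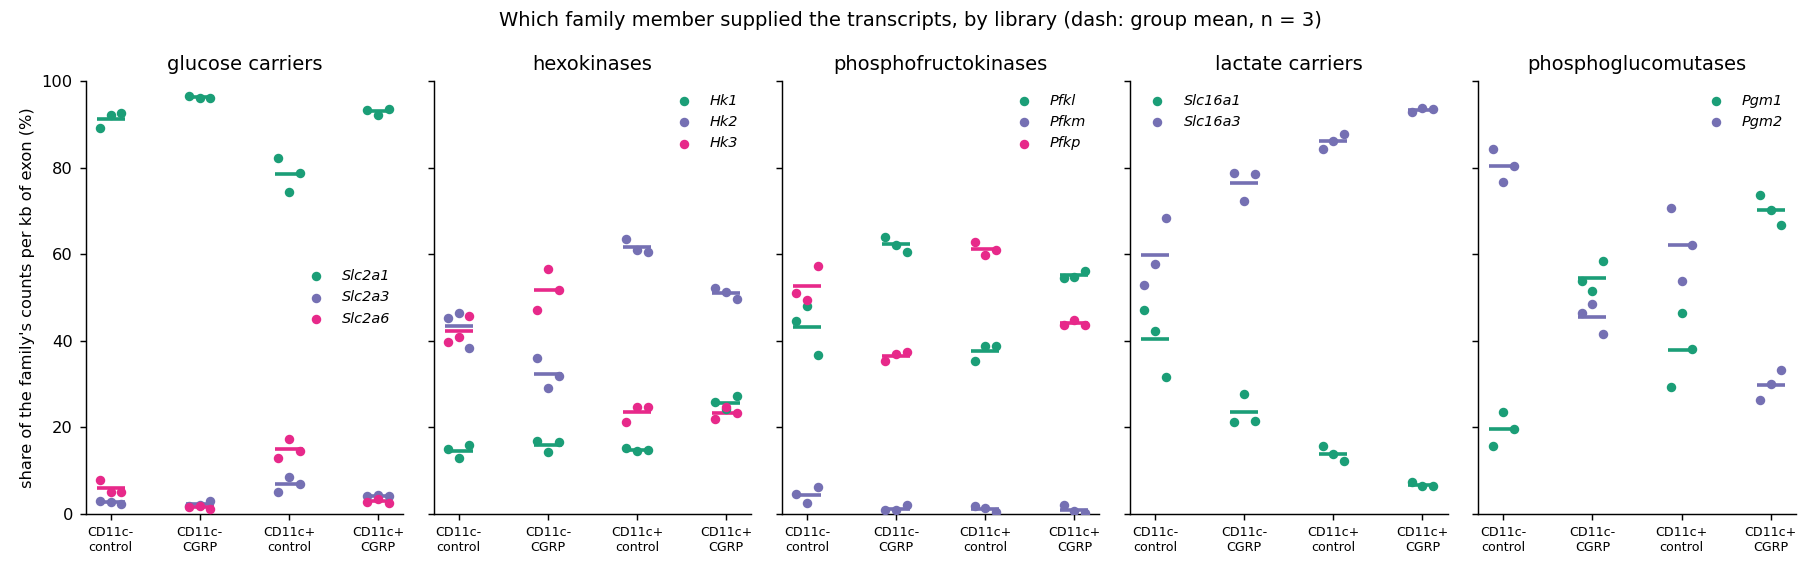
Share in percent (y axis) of each family's counts per kilobase of exon supplied by each of its members studied here, in each library (points) with the group mean (dash), for the 4 groups on the x axis. On this scale the leading phosphofructokinase is Pfkp in the control groups and Pfkl with CGRP, whereas in CPM Pfkp leads throughout. The leading phosphoglucomutase is Pgm2 in controls (80.4% and 62.1%) and Pgm1 with CGRP (54.5% and 70.2%).

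Aldolase cleaves fructose 1,6-bisphosphate, and its main form Aldoa cannot be read without naming 1 library. In CD11c- cells Aldoa stood at 516, 581 and 487 CPM in controls and 1380, 1500 and 1790 CPM with CGRP. In CD11c+ cells the CGRP libraries had 2160, 2420 and 2110 CPM, and the controls had 714, 810 and 0.858 CPM. The third control held 4 counts. No other gene showed such a drop. Among 3409 genes, it was the only case of 37685 gene and library pairs examined in which a value was more than 10 times below the lowest of the other 11 libraries, where that lowest value was 30 CPM or more. In the same library Gpi1 and Tpi1, which act earlier and later in the same chain, stood at 245 and 135 CPM, and the origin of the value was not tested. With all 12 libraries Aldoa did not pass in either subset in the edgeR fit used throughout (1.56 ± 0.78, adjusted p = 0.256, and 2.14 ± 0.79, adjusted p = 0.0986), and the call depended on the setting. It passed in both subsets when every gene with at least 1 count was kept (1.64 ± 0.13, adjusted p = 8.06e-32, and 2.15 ± 0.14, adjusted p = 8.38e-54). With CD11c+ controls at 714, 810 and 0.858 CPM, an SE of 0.14 does not carry their spread, so the second p-value does not measure it. Aldoa also passed in CD11c- cells when only their 6 libraries were fitted (1.56 ± 0.15, adjusted p = 1.18e-06), and in CD11c+ cells with limma-voom and quality weights (6.06 ± 1.2, adjusted p = 0.00149) or at a threshold of 0.1. Without CD11c+ control replicate 3 it passed in both, at 1.58 ± 0.13 in CD11c- cells (adjusted p = 1.21e-06) and 1.53 ± 0.15 in CD11c+ cells (adjusted p = 8.53e-06). Since all libraries share one estimate of the spread, the single value bore on the CD11c- test as well. Without that library 20 genes were called in CD11c- cells and 20 in CD11c+ cells.

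The PFKFB enzymes set the level of fructose 2,6-bisphosphate, the strongest activator of phosphofructokinase. Pfkfb3 stood at 469, 399 and 344 CPM in CD11c- controls and 483, 392 and 427 CPM with CGRP, and these groups overlapped. Among CD11c+ libraries it rose from 210, 209 and 173 CPM to 351, 296 and 296 CPM (0.67 ± 0.14, adjusted p = 0.00302). Pfkfb4 lay between 22.2 and 45.0 CPM in all libraries and did not pass in either subset.

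The lower chain, from glyceraldehyde 3-phosphate to pyruvate, gave the most uniform picture. Its 5 abundant enzymes all rose in both subsets with groups apart, while the scarce forms Bpgm, Eno2 and Eno3 did not pass. Gapdh, glyceraldehyde 3-phosphate dehydrogenase, went from 64.8, 64.2 and 60.0 CPM to 136, 182 and 186 CPM in CD11c- cells (2.67-fold, adjusted p = 4.76e-06). In CD11c+ cells it went from 103, 107 and 92.0 CPM to 227, 237 and 202 CPM (2.21-fold, adjusted p = 1.95e-05). A gene often used as a constant reference therefore differed between the treatment groups here. Pgk1, phosphoglycerate kinase, which makes the first ATP of the chain, went from 280, 300 and 286 CPM to 712, 795 and 988 CPM (2.88-fold, adjusted p = 9.95e-07). Its CD11c+ values were 361, 402 and 392 CPM and 1120, 1280 and 1180 CPM (3.10-fold, adjusted p = 2.04e-07). Every CGRP value was well clear of the controls.

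Pgam1, phosphoglycerate mutase, went from 177, 204 and 137 CPM to 432, 509 and 581 CPM in CD11c- cells (2.93-fold, adjusted p = 2.80e-06). The CD11c+ level went from 257, 288 and 237 CPM to 606, 573 and 557 CPM (2.22-fold, adjusted p = 2.67e-05). The lowest CGRP library held more than the highest control in each. Eno1, the main enolase, read 366, 490 and 303 CPM and then 1040, 1150 and 1670 CPM in CD11c- cells (3.33-fold, adjusted p = 3.99e-06). In the CD11c+ sort it read 661, 774 and 676 CPM and 2050, 2040 and 2190 CPM (2.98-fold, adjusted p = 6.07e-06). The spread was widest in CD11c- cells, and the groups were still apart. Pkm, pyruvate kinase, which makes pyruvate, had the highest counted level per kilobase of the 34 genes in each of the 4 groups. Reads shared with near-identical copies, described below, leave this order uncertain. Pkm read 1240, 1300 and 1180 CPM in CD11c- controls and 2820, 2990 and 3360 CPM with CGRP (2.46-fold, adjusted p = 6.75e-07). Its CD11c+ values were 1460, 1410 and 1430 CPM and 3460, 3720 and 3760 CPM (2.55-fold, adjusted p = 2.04e-07), again without overlap.

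Reads from some of these genes can also come from near-identical copies. Of all 100-base words of the transcripts, 51.65% were shared with another gene for Pgk1, 33.89% for Pgam1, 20.86% for Gapdh (with 84 genes), 20.42% for Eno1 and 12.27% for Pkm, so their levels are uncertain. The copies were counted too. Gm7336, the leading copy of Gapdh, rose by 1.38 on the log2 scale in CD11c- cells (adjusted p = 0.00142) and by 1.51 in CD11c+ cells (adjusted p = 0.00035), and stood at 35.1% to 65.5% of the Gapdh level. Eno1b rose by 1.65 (adjusted p = 2.86e-05) and 1.44 (adjusted p = 4.38e-05), and Pgk1-rs7 by 1.96 (adjusted p = 0.00305) and 1.83 (adjusted p = 0.00194). Pgam1-ps2 gave 0.86 (adjusted p = 0.215) and 1.57 (adjusted p = 0.0121). Gm49759, which overlaps Pkm, did not pass (-0.21 and -0.61, adjusted p = 0.675 and 0.121).

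At the lactate step, Ldha, the form of lactate dehydrogenase that favours lactate, went from 363, 376 and 360 CPM to 725, 767 and 891 CPM in CD11c- cells (2.17-fold, adjusted p = 4.01e-06). Likewise in CD11c+ cells it went from 446, 473 and 493 CPM to 1160, 1090 and 1140 CPM (2.40-fold, adjusted p = 9.81e-07). Controls were tight and CGRP libraries all higher. Slc16a3 (MCT4), the lactate exporter of glycolytic cells, read 91.8, 133 and 142 CPM and then 318, 331 and 361 CPM in CD11c- cells (2.76-fold, adjusted p = 4.76e-06). Its CD11c+ values were 244, 293 and 242 CPM and 514, 582 and 513 CPM (2.07-fold, adjusted p = 6.95e-05). The groups were apart in both. Slc16a1 (MCT1), the more widespread monocarboxylate carrier, did not pass, at 0.34 (95% interval -0.06 to 0.74) in CD11c- cells and -0.12 (-0.54 to 0.29) in CD11c+ cells. Per kilobase Slc16a3 made up 59.7% ± 7.84 of the pair in CD11c- controls and 76.5% ± 3.64 with CGRP, and 86.1% ± 1.73 and 93.3% ± 0.484 in CD11c+ cells. Ldhb, the heart form of the dehydrogenase, supplied at most 1.25% of lactate dehydrogenase transcripts per kilobase in any library.

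Pyruvate dehydrogenase kinases switch off the complex that uses pyruvate in the mitochondrion, and both kinases studied here were scarce. Pdk1 read 9, 5.73 and 9.85 CPM in CD11c- controls and 13.0, 18.7 and 20.2 CPM with CGRP (1.10 ± 0.31, adjusted p = 0.0305). In CD11c+ cells it read 7.75, 14.3 and 14.4 CPM and 39.9, 31.9 and 45.0 CPM (1.65 ± 0.29, adjusted p = 0.000677). The CD11c+ groups were more than 2-fold apart at their nearest, and the CD11c- groups were closer. Pdk3 read 9.62, 3.44 and 8.95 CPM and 19.3, 18 and 12.1 CPM in CD11c- cells (1.18 ± 0.36, adjusted p = 0.0422). The CD11c+ libraries read 9.79, 13.6 and 13.9 CPM and 26.5, 19.1 and 24.2 CPM (0.89 ± 0.33, adjusted p = 0.0967). In CD11c- cells these calls were among the less stable. The Pdk1 call was lost in 2 of 12 other settings and without any 1 of 4 of the 12 libraries (lowest estimate 0.91, adjusted p = 0.125, without CD11c- control replicate 2). The Pdk3 call was lost in 6 of 12 settings and without any 1 of 6 libraries (lowest estimate 0.84, adjusted p = 0.158, without CD11c- control replicate 2).

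Among the 33 genes tested, the largest called change in each subset was in a glycogen gene, and 4 of the 5 glycogen genes rose in each subset. Pgm1, phosphoglucomutase, which links glucose 6-phosphate with glucose 1-phosphate, stood at 7.76, 14.6 and 7.61 CPM in CD11c- controls and 68.3, 55.9 and 79.4 CPM with CGRP (6.64-fold, log2 2.73 ± 0.24, adjusted p = 1.21e-06). In the CD11c+ sort it stood at 18.8, 23.4 and 21.0 CPM and 121, 102 and 89.3 CPM (4.91-fold, 2.29 ± 0.22, adjusted p = 2.26e-06). No gene of the 33 rose more in CD11c- cells. Gys1, the glycogen synthase of tissues other than liver, read 9, 18.6 and 14.3 CPM and then 74.9, 69.7 and 112 CPM (6.10-fold, 2.61 ± 0.24, adjusted p = 1.95e-06). Its CD11c+ values were 26.1, 26.7 and 33.5 CPM and 177, 136 and 163 CPM (5.49-fold, 2.46 ± 0.22, adjusted p = 1.32e-06). The estimate in CD11c+ cells was the highest of the 33 genes there.

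Gbe1, the glycogen branching enzyme, read 27.3, 20.4 and 23.3 CPM in CD11c- controls and 46.8, 68.8 and 69.2 CPM with CGRP (2.61-fold, 1.38 ± 0.21, adjusted p = 0.000288). Among CD11c+ libraries it read 13.5, 13.1 and 15.9 CPM and 52.7, 72.8 and 68.5 CPM (4.54-fold, 2.18 ± 0.22, adjusted p = 3.00e-06). Control levels differed between the subsets, and CGRP levels overlapped. Pygl, the liver glycogen phosphorylase, which breaks glycogen down, read 15.5, 8.60 and 10.7 CPM and 31.2, 24.3 and 55.4 CPM in CD11c- cells (1.67 ± 0.36, adjusted p = 0.00504). In CD11c+ cells it read 11.4, 5.85 and 17.2 CPM and 36.4, 28.7 and 31.3 CPM (1.48 ± 0.36, adjusted p = 0.00931). Transcripts for building and for breaking glycogen were thus both higher, and the CD11c+ Pygl call was lost without CD11c+ control replicate 2 (1.11, adjusted p = 0.0658). Pgm2, a paralog of Pgm1, did not pass (0.47 and 0.31, adjusted p = 0.188 and 0.419). Per kilobase Pgm1 went from 19.6% ± 3.85 to 54.5% ± 3.51 of the pair in CD11c- cells and from 37.9% ± 8.44 to 70.2% ± 3.42 in CD11c+ cells.

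The 6 scarcest genes, Pfkm, Aldoc, Bpgm, Eno2, Eno3 and Ldhb, had group means under 15 CPM throughout and lay between 0 and 16.4 CPM. None of the 5 tested was called in any comparison. At these counts a change of moderate size was not detectable.

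Whether CGRP acted to a different extent in the subsets was asked with the interaction of subset and treatment. None of the 33 genes passed by edgeR, where 0.151% of all genes tested did (0.134% with a more positive and 0.0168% with a more negative change in CD11c+ cells), nor by DESeq2 or limma-voom, and 4 had an unadjusted p under 0.05. These were Hk3 (-0.57, 95% interval -0.95 to -0.18, adjusted p = 0.304), Pfkfb3 (0.57, 0.16 to 0.98, adjusted p = 0.357), Gbe1 (0.80, 0.17 to 1.43, adjusted p = 0.411) and Hk1 (0.41, 0.06 to 0.77, adjusted p = 0.472), where a positive value means a more positive change in CD11c+ cells. The 17 genes that rose in both subsets had interaction estimates from -0.44 to 0.80, with a median size of 0.22. For Pkm the interval of the difference was -0.26 to 0.35 and for Slc2a1 it was -0.36 to 0.32, so that a further 1.5-fold difference between the subsets is outside both. For Slc2a3, which passed in CD11c- cells and missed the threshold in CD11c+ cells, it was -1.31 to 0.01. Missing the threshold does not show that the subsets responded alike.

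The subsets themselves differed at rest. In the controls, 15 of the 33 genes were higher and 5 lower in CD11c+ than in CD11c- cells, where 10.2% of all genes were higher and 10.9% lower (21.2% in either direction), and the median log2 difference was 0.41 beside -0.02 over all genes. With CGRP 14 were higher and 3 lower, where 8.36% and 8.51% of all genes were (16.9% in either direction), and the median was 0.49 beside 0. Among the 33 genes, 18 had every CD11c+ library above every CD11c- library in controls and 18 with CGRP, and 5 and 4 had them all below. Non-overlapping groups were found for 34.2% of all genes in controls (16.7% above, 17.5% below) and 34.8% with CGRP (17.8% above, 17% below). These comparisons use the same libraries as those of CGRP with control, so they are given beside them and not as separate evidence.

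In controls, the glucose carriers Slc2a3 and Slc2a6 had the widest gaps of the 33 genes. Slc2a3 was 4.13-fold higher in CD11c+ controls (log2 2.05 ± 0.23, adjusted p = 3.99e-06) and 2.64-fold higher with CGRP (1.40 ± 0.22, adjusted p = 0.000115). Slc2a6 was 4.08-fold higher in controls (2.03 ± 0.24, adjusted p = 4.89e-06) and 2.82-fold with CGRP (1.49 ± 0.24, adjusted p = 0.000182). For both carriers each CD11c+ library was above each CD11c- library of the same treatment. Slc16a3 was 2.13-fold higher in controls (1.09 ± 0.15, adjusted p = 3.42e-05). Slc16a1 went the other way, at 67.9, 80.8 and 55.1 CPM in CD11c- controls and 37.5, 39.3 and 27.9 CPM in CD11c+ controls (-0.97 ± 0.20, adjusted p = 0.00147). With CGRP it read 71.5, 105 and 82.2 CPM and 33.4, 32.7 and 29.7 CPM (-1.44 ± 0.19, adjusted p = 2.62e-05). For Slc16a1 each CD11c+ library was below each CD11c- library of the same treatment.

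Among the enzymes, Hk3 was lower in CD11c+ cells by 1.25 (log2 -1.25 ± 0.13, adjusted p = 1.70e-06) in controls and by 1.82 (-1.82 ± 0.13, adjusted p = 1.85e-08) with CGRP. Pfkfb3 was lower too (-1.04 ± 0.14, adjusted p = 2.80e-05, and -0.47 ± 0.14, adjusted p = 0.0245). The Pfkfb3 call with CGRP was lost when libraries were thinned to the lowest total (-0.38, adjusted p = 0.0797) and without CD11c- CGRP replicate 1 (-0.38, adjusted p = 0.125), CD11c+ CGRP replicate 2 (-0.42, adjusted p = 0.0903) or CD11c+ CGRP replicate 3 (-0.41, adjusted p = 0.113). Pfkp, by contrast, read 228, 212 and 251 CPM in CD11c- controls and 493, 455 and 496 CPM in CD11c+ controls (1.06 ± 0.12, adjusted p = 2.78e-06). With CGRP it read 236, 277 and 274 CPM and 469, 451 and 455 CPM (0.80 ± 0.12, adjusted p = 5.34e-05). Its change with CGRP passed in neither subset (0.19, adjusted p = 0.377, and -0.07, adjusted p = 0.794). Pgm1 and Gys1, which rose most of the 33 genes with CGRP, were already about 2-fold higher in CD11c+ controls (1.05 ± 0.25, adjusted p = 0.00537, and 1.04 ± 0.25, adjusted p = 0.00544). Slc2a1, Gpi1, Pfkl, Tpi1, Gapdh, Pgk1, Pgam1, Eno1 and Ldha were higher in CD11c+ controls by 0.36 to 0.86 on the log2 scale. Of these, Pgk1 (0.41, adjusted p = 0.0241) was lost without CD11c- control replicate 1 (adjusted p = 0.0611) or 3 (0.0534), and Ldha (0.36, adjusted p = 0.0259) without CD11c- control replicate 1 (0.0537) or 3 (0.0575) or CD11c+ control replicate 3 (0.058). The lower Hk1 (-0.38, adjusted p = 0.0305) and Gbe1 (-0.73, adjusted p = 0.0262) in CD11c+ controls were lost in 3 and 5 of 13 other settings, and without any 1 of 7 and 6 of the 12 libraries. With CGRP, the higher Pfkl (0.36, adjusted p = 0.0496) and Pgm1 (0.62, adjusted p = 0.0436) in CD11c+ cells were lost in 4 and 2 of 13 other settings. They were also lost without any 1 of 10 and 6 of the 12 libraries. The higher Tpi1 (0.49, adjusted p = 0.0114) was lost without 1 library (adjusted p = 0.0532).

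Other genes of the same pathway were taken from lists of 107 symbols, of which 75 were tested. In CD11c- cells 8 of 75 rose and 0 fell, with a median of 0.09, and in CD11c+ cells 9 rose and 0 fell, with a median of 0.04, beside the 5.32% and 6.29% of all genes that rose. For the 11 genes of pyruvate entry into mitochondria, edgeR called 0 in either subset, and for the 16 genes of the tricarboxylic acid cycle it called 1 in CD11c- cells (Sdhd, a subunit of succinate dehydrogenase, 0.92 ± 0.26, adjusted p = 0.0313) and 0 in CD11c+ cells, where 9.21% and 10.9% of all genes were called. The 5 other glycolytic and lactate genes gave Bsg, the chaperone of the lactate carriers, in both subsets (1.46 ± 0.13, adjusted p = 1.21e-06, and 1.27 ± 0.13, adjusted p = 3.00e-06). In the pentose phosphate pathway 2 of 10 genes rose in each subset, Pgd and Taldo1, while G6pdx, its entry enzyme, gave 0.12 (adjusted p = 0.764) and -0.21 (adjusted p = 0.547).

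Among 16 other glycogen genes, Ppp1r3b, which brings protein phosphatase 1 to glycogen and so favours synthesis, rose in both subsets (1.57 ± 0.24, adjusted p = 0.000313, and 1.30 ± 0.23, adjusted p = 0.000809). Ugp2, which makes the UDP-glucose that Gys1 uses, rose in CD11c+ cells (1.21 ± 0.22, adjusted p = 0.00108) and missed the threshold in CD11c- cells (0.58 ± 0.22, adjusted p = 0.119). Of 12 genes of oxygen sensing and glucose-responsive control, 3 rose in CD11c- cells and 4 in CD11c+ cells. Egln3 (PHD3), a prolyl hydroxylase that marks HIF subunits for decay, went from 9, 33.8 and 21.9 CPM to 86.0, 78.0 and 148 CPM in CD11c- cells (2.26 ± 0.33, adjusted p = 0.000208). The CD11c+ level went from 10.6, 16.1 and 20.4 CPM to 140, 108 and 145 CPM (3.02 ± 0.34, adjusted p = 7.49e-06). The groups were far apart in CD11c+ cells and also did not meet in CD11c- cells.

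Egln1 (PHD2), the main oxygen sensor of the same family, rose by 1.45 ± 0.19 (adjusted p = 4.72e-05) and 1.27 ± 0.18 (adjusted p = 8.19e-05). Hif1a itself rose less, by 0.59 ± 0.16 (adjusted p = 0.0237) and 0.63 ± 0.16 (adjusted p = 0.0124). Txnip, an inhibitor of glucose uptake that is induced by sugar, rose in CD11c+ cells (0.67 ± 0.16, adjusted p = 0.0102) and gave -0.05 (adjusted p = 0.913) in CD11c- cells. Fbp1, the gluconeogenic enzyme that opposes phosphofructokinase, was at 0 to 1.15 CPM and was not tested, and of 3 gluconeogenic genes tested edgeR called 0 in either subset. Neither of the 2 other sugar carriers tested was called.

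**Figure D4:**
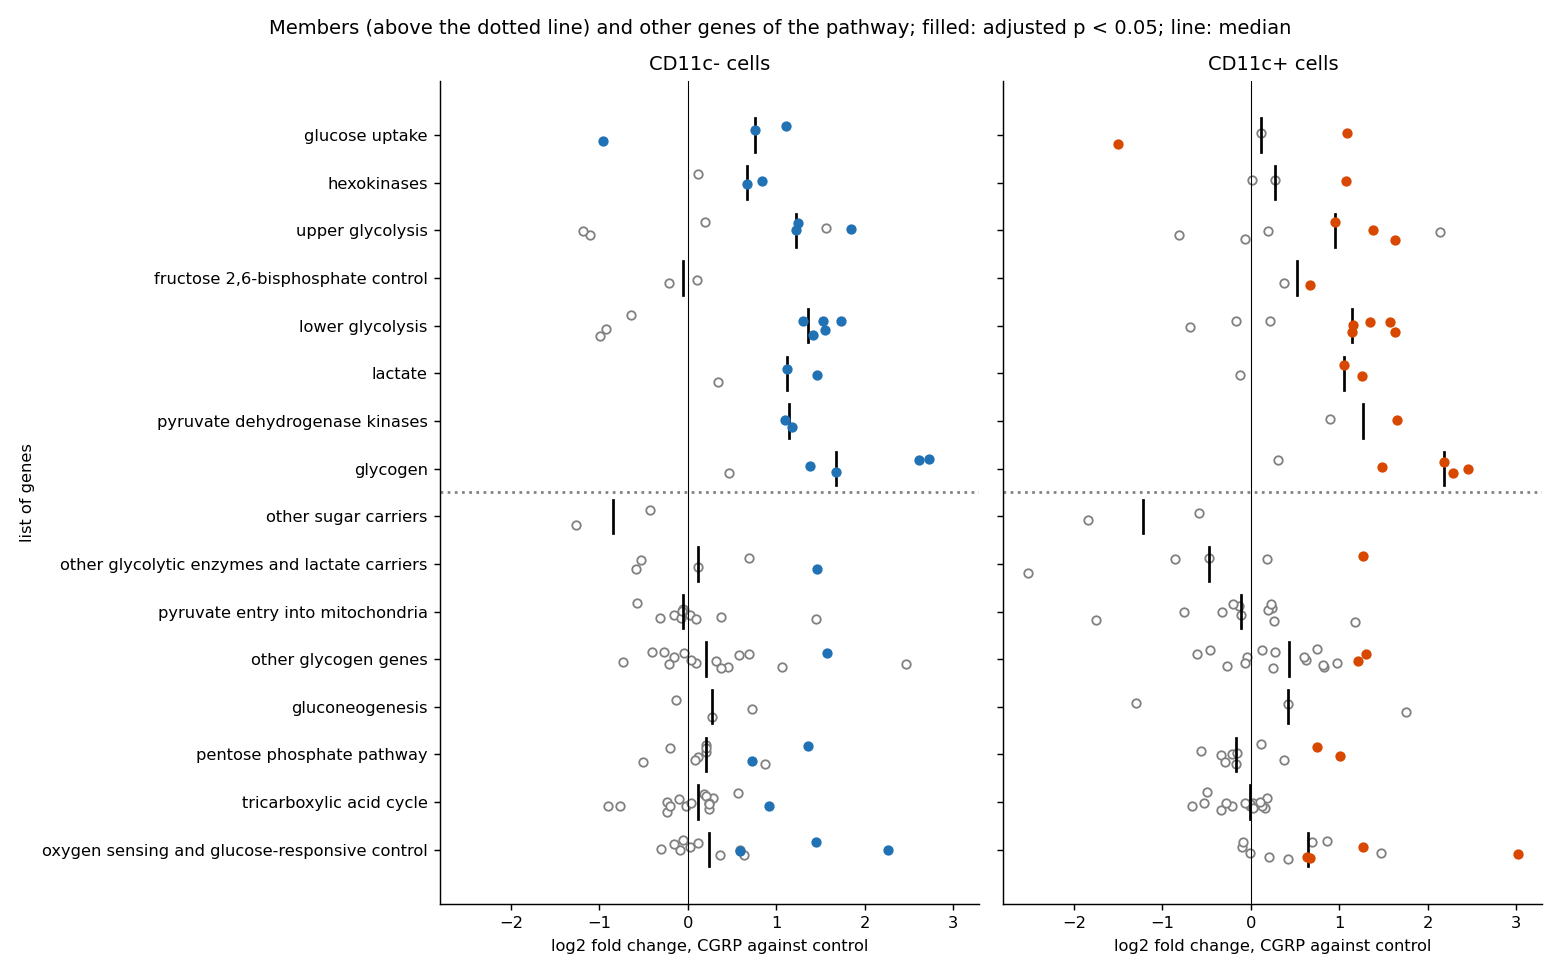
Log2 fold change with CGRP (x axis) of every tested gene, by list (y axis), in CD11c- cells (left) and CD11c+ cells (right), with the 33 genes tested above the dotted line and the 75 other genes of the pathway below it. Filled points passed the test, lines mark the medians, and the tricarboxylic acid cycle list has 1 filled point on the left and 0 on the right.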

How the data were processed

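The authors prepared total RNA libraries with the SMARTer Stranded Total RNA-Seq Pico kit, sequenced them in pairs on a NovaSeq, trimmed them with Trim Galore, aligned them with HISAT2 to mm10 and counted reads per gene with featureCounts. Versions, annotation and strand setting are not given in the sources used here. The deposited values are raw counts per gene symbol, 12 libraries in 4 groups of 3. The combined table repeats them and has 6 further columns of no labelled sample, which were not used.

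The counts were fitted here with edgeR 4.0.16 (R 4.3.3), with TMM scaling, filterByExpr by group (minimum count 10, 11927 of 26699 genes kept), a quasi-likelihood fit of the 4 group means over all 12 libraries, and Benjamini-Hochberg adjustment at 0.05. There were 5 contrasts (CGRP in each subset, the interaction, and the subsets in each condition). Levels per kilobase used the merged length of all annotated exons of a gene in GENCODE M21 (GRCm38). These may differ from the authors' annotation and from the transcripts present. Alternatives were other scalings and filters, DESeq2 1.42.0, limma-voom (limma 3.58.1), a surrogate variable (sva 3.50.0), a replicate block, thinning, each library left out and, added after seeing the data, offsets for GC content and transcript length. The fit was also run on simulated counts with known changes. These were drawn independently, without outlier values or shared explants, so that run does not bear on such features of the data.

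The 34 genes, the other lists and the choice of comparisons were made with earlier results of these data known. All 34 genes are named by role, with full values for those past the threshold in a comparison. From the other lists, up to 3 in each direction with the largest change are named, and always Hif1a, Egln1, Egln3, Txnip, Fbp1 and G6pdx. The genes Sdhd, Pgd, Taldo1 and Ugp2 and the copies were named after their values were seen.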

Additional observations from a re-analysis of the deposited data

How the results depend on the processing

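Over 12 or 13 alternatives and 12 fits that each left out 1 library, the number of the 33 genes past the threshold stayed within 1.5 times the reported count in all 5 comparisons. It was 17 to 22 in CD11c- cells (17 with limma-voom, which lost Slc2a3, Slc2a6, Pdk1 and Pdk3), 19 to 21 in CD11c+ cells, 18 to 20 between subsets in controls and 15 to 19 with CGRP. With 1 library left out it was 18 to 21, 18 to 20, 16 to 20 and 14 to 18. The interaction count was 0 in all of them. All alternatives run, single omitted libraries included, kept 17 of 21 calls in CD11c- cells, 18 of 19 in CD11c+ cells, 16 of 20 between subsets in controls and 13 of 17 with CGRP.

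Replicate numbers were shared between groups, but deviations from the group means of same-numbered libraries correlated unevenly (r from -0.016 to 0.288 over 7161 genes, under 0.1 for at least 1 number in every comparison), so the numbers were not used as pairs. The labels do not say whether same-numbered libraries came from 1 explant, and these correlations do not settle it. With the replicate block the counts were 20 in CD11c- cells (without Slc2a3, adjusted p = 0.0544), 19 in CD11c+ cells, 20 between subsets in controls and 17 with CGRP, and 0 for the interaction. With treatment and number as 1 block the subset counts were 20 and 19.

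Some values changed sign under an alternative or with 1 library left out. For CGRP in CD11c+ cells, Hk2 gave -0.01 (RLE scaling and DESeq2), -0.04 (upper-quartile scaling), 0.00 (10 counts in every library) and -0.06 (thinned), and -0.11 to 0.07 without 1 library, and Slc2a3 gave -0.06 to 0.29. Between the subsets with CGRP, Hk1 gave 0.00 with 1 surrogate variable and -0.05 to 0.09 without 1 library, and Gbe1 gave -0.10 to 0.20 without 1 library. Hk2 gave -0.02 in 3 settings (1 surrogate variable, limma-voom and thinning) and down to -0.08 without 1 library, and Pygl gave -0.43 to 0.22. Between the subsets in controls, Pygl gave 0.08 (every gene with at least 1 count), 0.01 (10 counts in every library and limma-voom), 0.02 (1 surrogate variable) and 0.04 (GC and length offsets), and -0.43 to 0.39 without 1 library. Pgm2 gave -0.38 to 0.02 there. Aldoa gave 0.01 there with every gene of at least 1 count and -0.53 to 0.58 without 1 library (0.58 ± 0.14, adjusted p = 0.00839, without CD11c+ control replicate 3), and with limma-voom and quality weights it passed at -3.98 (adjusted p = 0.0388), where its interaction estimate was 4.52 (adjusted p = 0.352). For the interaction, Pkm gave -0.03 with every gene of at least 1 count and -0.02 to 0.11 without 1 library, and Pygl gave 0.07 when thinned and -0.59 to 0.23 without 1 library. Without 1 library, the interaction was -0.18 to 0.01 for Slc2a1, 0.00 to 0.27 for Gpi1, -0.01 to 0.24 for Pgk1, -0.40 to 0.06 for Eno1, -0.58 to 0.04 for Pdk3, -0.37 to 0.03 for Pgm2, -0.49 to 0.09 for Gys1 and -0.05 to 1.05 for Aldoa. The cause was not tested. Upper-quartile scaling and the other scalings moved the median of all genes by less than 0.1. Depth limits the scarce genes most, since at the smallest library 3 counts correspond to 1.33 CPM.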
